A study of Homo sapiens with 6 samples.

Results

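The genes followed here are 10 components of the circadian clock, *PER1*, *PER2*, *PER3*, *CRY1*, *CRY2*, *NR1D1*, *NR1D2*, *DBP*, *TEF* and *BHLHE40*, chosen by name for their place in the feedback loops of the clock. All 10 were found among the 58676 gene identifiers of the RNA-Seq count table, and all 10 passed the filter on low counts. The libraries came from MRC5 human lung fibroblasts, kept for 24 h in conditioned media (CM) from ATII ER:KRASV12 cells. These are alveolar epithelial type II cells carrying an inducible RAS construct that 4-hydroxytamoxifen (4-OHT) switches on, and the cells that gave the control CM carried it too. There were 3 libraries of fibroblasts in CM of cells without 4-OHT (control ATII CM) and 3 in CM of cells given 4-OHT for 24 h (4-OHT ATII CM). Whether 4-OHT itself remained in the CM is not given in the sources used here. Every library followed the same 24 h of exposure, while the hour of harvest, and whether the clocks of the cells were in step, are not given in the sources used here.

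In nearly every cell of the body, the circadian clock is a loop of transcription and repression. The factors CLOCK and BMAL1 bind E-box sequences and switch on the period and cryptochrome genes, and the PER and CRY proteins then enter the nucleus and shut off their own activators. In a further loop the REV-ERB receptors, encoded by *NR1D1* and *NR1D2*, repress *BMAL1*, while the ROR receptors activate it. PAR bZIP factors such as DBP and TEF carry the rhythm on to genes with D-box sequences, and BHLHE40 competes for E-boxes. Cultured fibroblasts keep such a clock, and fresh serum or glucocorticoids can bring the clocks of the cells in a dish into step.

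None of the 10 clock genes differed between fibroblasts in 4-OHT ATII CM and in control ATII CM at an adjusted p below 0.05 (edgeR quasi-likelihood test, Benjamini-Hochberg over 19072 genes), where 5.72% of all genes tested were called, 2.95% higher and 2.76% lower. Without adjustment, the number of clock genes with a p below 0.05 was also 0, against 17.3% of all genes, and DESeq2 and limma-voom called 0 of them as well. The log2 fold changes ran from -0.15 for *NR1D1* to 0.14 for *CRY2*, and the sign was positive for 4 genes and negative for 6. Their median was -0.017, beside -0.0020 over all genes tested. The median size of the change, without its sign, was 0.039 on the log2 scale for the 10 genes and 0.12 for all genes. These medians are not matched for depth. The clock genes held 725 to 9622 counts each over the 6 libraries, while all genes tested include those with as few as 10. Taken over the 10 genes, the 95% intervals of the change reached at most 22.8% lower (*DBP*) and 22.0% higher (*PER2*). A miss of the threshold does not show that the levels were equal, and these intervals give the sizes that the data leave possible. In a bulk library, fewer cells with a transcript and less of it per cell cannot be told apart.

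Short stretches of the promoters are given first, because the E-box and the D-box are the sequences through which the clock acts on its own genes. RefSeq promoter windows on GRCh38.p14, from 250 bases before to 50 after each start site, were found for all 10 genes, 14 windows in all. They were searched on both strands for the E-box CACGTG, its variant CACGTT, the D-box TTATGTAA, the related palindrome TTACGTAA, the ROR element TAGGTCA and the cAMP response element TGACGTCA (no motif contains another). The E-box was in 5 of the 14 windows, those of *PER1*, *TEF*, *BHLHE40* and *NR1D2*, and in 7.26% of all 35116 windows of the same length. In 4 of the 14 windows the variant CACGTT was found (5.34% of all windows), in 2 the D-box (0.886%), in 1 the palindrome (0.125%) and in 1 the ROR element (1.85%). No match to the cAMP response element was found. The window of *DBP* held none of these letters. A match is a description of these letters and not evidence of binding. Capitals mark the match, and each stretch is written 5′ to 3′ on the strand of its gene, where a match may read as its reverse complement.
*PER1*, E-box 173 bases before the start, chr17:8152555-8152594, minus strand: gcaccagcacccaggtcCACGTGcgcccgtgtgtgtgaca
*TEF*, E-box 195 bases before the first start, chr22:41367243-41367282, plus strand: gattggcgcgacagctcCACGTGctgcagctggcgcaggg
*TEF*, E-box 193 bases before the other start, chr22:41381732-41381771, plus strand: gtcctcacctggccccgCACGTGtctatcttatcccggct
*BHLHE40*, E-box 245 bases before the start, chr3:4979187-4979214, plus strand: tccaaCACGTGagactcatgtgatgaag
*PER2*, E-box variant 197 bases before the start, chr2:238288785-238288824, minus strand: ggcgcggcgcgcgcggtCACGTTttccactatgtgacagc
*PER2*, D-box palindrome 3 bases before the start, chr2:238288589-238288630, minus strand: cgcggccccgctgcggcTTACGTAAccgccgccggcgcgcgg
*CRY1*, E-box variant 89 bases before the start, chr12:107093616-107093655, minus strand: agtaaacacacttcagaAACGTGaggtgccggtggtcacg
*CRY2*, E-box variant 188 bases before the start, chr11:45847270-45847309, plus strand: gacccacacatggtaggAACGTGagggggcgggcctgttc
*CRY2*, ROR element 65 bases before the start, chr11:45847393-45847433, plus strand: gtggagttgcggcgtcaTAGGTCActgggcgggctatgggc
*NR1D1*, E-box variant 168 bases before the start, chr17:40100735-40100774, minus strand: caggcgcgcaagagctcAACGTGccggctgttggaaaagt
*PER3*, D-box 177 bases before the start, chr1:7784097-7784138, plus strand: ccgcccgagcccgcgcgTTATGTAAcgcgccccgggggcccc

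One window of *NR1D2* held both kinds of element, a D-box 194 bases and E-boxes 155 and 105 bases before the start, and it is shown whole for that reason.
*NR1D2*, chr3:23945871-23946170, plus strand: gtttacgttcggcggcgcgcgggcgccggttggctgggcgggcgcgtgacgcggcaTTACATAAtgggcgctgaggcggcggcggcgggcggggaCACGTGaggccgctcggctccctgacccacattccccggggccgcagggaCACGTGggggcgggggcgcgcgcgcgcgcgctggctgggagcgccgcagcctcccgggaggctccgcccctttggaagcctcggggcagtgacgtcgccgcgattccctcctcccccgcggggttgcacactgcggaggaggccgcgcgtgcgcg

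Library totals ranged from 17691849 to 26389449 counts. On the first principal component, with 43.4% of the variance, the groups separated, and the second, with 23.3%, set control ATII CM replicate 2 apart, so its removal is among the alternatives given with the results. The 9 fibroblast markers, *COL1A1*, *DCN* and *PDGFRA* among them, summed to between 41409 and 44364 CPM (each count divided by the size of its library) under control ATII CM and to between 43075 and 44271 CPM under 4-OHT ATII CM. Of the 9, 4 were called higher and 1 lower, beside 2.95% and 2.76% of all genes tested. Each of the 9 held 56883 to 2318721 counts over the 6 libraries, and *DCN* had the largest log2 fold change, 0.33. The 4 higher calls, *COL3A1*, *DCN*, *LUM* and *PDGFRA*, held in 15 of 15 alternatives. The lower call, *VIM* (log2 fold change -0.10), held in 9 of 15, with an adjusted p of up to 0.212 among them all, and *COL1A1* (-0.092), not called, was called in 5 of 15 and *COL1A2* (-0.015) in 1. None of the 8 epithelial markers tested, of 14, was called. The 14 epithelial markers summed to 99.8 to 107 CPM under control ATII CM and to 97.2 to 106 CPM under 4-OHT ATII CM. Most of this sum came from the keratin genes *KRT18*, with group means of 53.5 and 51.8 CPM, and *KRT8*, with 32.5 and 33.7 CPM, followed by *KRT19* (7.73 and 6.59 CPM) and *MUC1* (6.80 and 7.05 CPM). *EPCAM* had 48 counts over the 6 libraries, *ESRP1*, *SFTPA1* and *NKX2-1* had no count in any library, *SFTPB* and *SFTPC* had 1 count each, and *CDH1* had 4.

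Each of the 10 clock genes was expressed, at levels that spanned more than an order of magnitude per length. As RPKM, which divides CPM by the deposited exon length of the gene, *NR1D2* was the highest with 12.3 (range over the 6 libraries 11.5 to 13.2), above 82.8% of all genes tested. *BHLHE40* followed with 6.67 RPKM (6.48 to 6.90). *CRY1* had 4.98, *NR1D1* 4.67, *TEF* 4.59 and *CRY2* 4.26 RPKM, and in this run of 4 genes the library ranges of each gene overlapped those of the next. *PER1* had 1.62 RPKM (1.51 to 1.80) and *PER3* 1.23 RPKM (1.15 to 1.33). *DBP* with 0.925 RPKM and *PER2* with 0.781 RPKM were lowest, with overlapping ranges, and *PER2* stood above 37.5% of the genes tested. Neighbours elsewhere in this order did not overlap over the 6 libraries.

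The order depends in part on the length used. The deposited exon length of *DBP* is 6544 bases, while its canonical transcript in GENCODE release 44 has 2170, and with that length its level was 2.79 RPKM and its rank among the 10 rose from 9 to 7. On the same basis *CRY1* moved from rank 3 to 2 with 8.44 RPKM and *CRY2* from 6 to 4 with 6.40 RPKM, while *NR1D2* stayed first and *PER2* last.

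**Figure D1:**
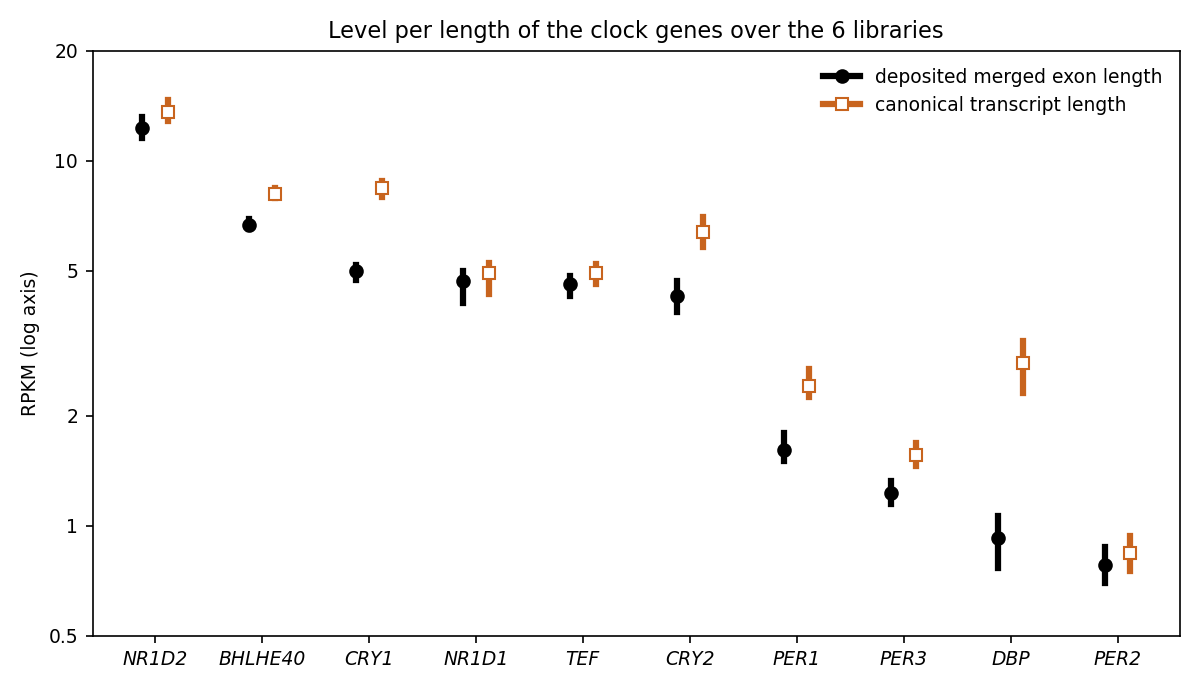
Level per length (RPKM, log axis) of the 10 clock genes over all 6 libraries, in the order of the deposited exon length. Symbols are means and bars the range over the libraries. *NR1D2* is highest at 12.3 RPKM and *PER2* lowest at 0.781 RPKM, and the canonical transcript length, with the square symbols, raises *DBP* from 0.925 to 2.79 RPKM.

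The period genes encode the repressors that bind the cryptochromes and close the main loop of the clock. *PER1* (ENSG00000179094, chromosome 17 of GRCh38, 8140472 to 8156506, minus strand) responds to growth factors and glucocorticoids within the hour in many cells. It was at 11.6, 10.97 and 12.6 CPM under control ATII CM and at 10.6, 11.3 and 10.9 CPM under 4-OHT ATII CM. The groups overlapped by 1 library on each side, and the log2 fold change (given with its standard error, SE) was -0.11 (SE 0.0834, 95% interval -0.29 to 0.07, adjusted p = 0.574 from edgeR). Its 6 libraries held 196 to 286 counts of this gene.

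*PER2* (ENSG00000132326, chromosome 2, 238244038 to 238290102, minus strand) is the period gene whose loss disturbs the rhythm most in mice. Its values were 5.997, 4.87 and 5.12 CPM under control ATII CM and 5.62, 5.81 and 4.79 CPM under 4-OHT ATII CM, so that the ranges lay almost on top of each other. The log2 fold change was 0.016 (SE 0.128, 95% interval -0.26 to 0.29), with the wide interval of a gene at 87 to 145 counts per library. Its sign followed the choice of libraries, with -0.043 when 4-OHT replicate 2 was left out and 0.11 when control replicate 1 was.

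*PER3* (ENSG00000049246, chromosome 1, 7784320 to 7845177, plus strand) has a lesser part in the timekeeping itself. It was at 9.70, 10.6 and 9.84 CPM under control ATII CM and 10.7, 9.54 and 9.28 CPM under 4-OHT ATII CM. The ranges crossed, and a log2 fold change of -0.028 was found (SE 0.0905, 95% interval -0.22 to 0.16). The exons of *PER3* overlap 868 bases of *UTS2* on the opposite strand, a gene without a count in these libraries.

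The cryptochromes are the stronger repressors of CLOCK and BMAL1. *CRY1* (ENSG00000008405, chromosome 12, 106991364 to 107093829, minus strand) was at 24.5, 24.6 and 26.0 CPM under control ATII CM and at 26.0, 23.8 and 26.3 CPM under 4-OHT ATII CM. Here too the groups overlapped, with a log2 fold change of 0.017 (SE 0.0601, 95% interval -0.11 to 0.14). *CRY2* (ENSG00000121671, chromosome 11, 45847118 to 45883248, plus strand) came nearest to the threshold of the 10 genes, with an unadjusted p of 0.0501 from edgeR and an adjusted p of 0.288. Its values were 23.9, 24.6 and 27.0 CPM under control ATII CM and 26.0, 29.0 and 28.0 CPM under 4-OHT ATII CM. The highest control library, replicate 3, lay above the lowest 4-OHT library, replicate 1. The log2 fold change was 0.14 (SE 0.0637, 95% interval -6.48e-05 to 0.27), and over all 15 alternatives the adjusted p of *CRY2* ranged from 0.186 to 0.565.

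REV-ERBα and REV-ERBβ are heme-binding nuclear receptors that repress *BMAL1* and many metabolic genes. *NR1D1* (ENSG00000126368, chromosome 17, 40092787 to 40100725, minus strand) was the only one of the 10 genes whose groups did not overlap, a pattern seen in 22.1% of all genes tested. It was at 13.8, 13.3 and 13.8 CPM under control ATII CM and 11.3, 12.2 and 13.2 CPM under 4-OHT ATII CM, and the gap between control replicate 2 and 4-OHT replicate 3 was smaller than the spread within either group. The log2 fold change was -0.15 (SE 0.0805, 95% interval -0.32 to 0.02, adjusted p = 0.360 from edgeR), with -0.22 when 4-OHT replicate 3 was left out and -0.096 when 4-OHT replicate 1 was.

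Exons of *NR1D1* overlap those of *THRA*, the gene of thyroid hormone receptor α, on the opposite strand by 263 bases, 9.49% of the exon length of *NR1D1*. The library kit as named does not mark strand, so reads there cannot be assigned to one of the genes. *THRA* was higher in 4-OHT ATII CM, at 101 ± 2.03 CPM against 90.7 ± 1.26 CPM (mean ± SD of 3), with a log2 fold change of 0.15 (SE 0.0367, adjusted p = 0.0249 from edgeR). Its call held in 10 of 15 alternatives, over which the adjusted p ranged from 0.00623 to 0.102. The part of this overlap in the value of *NR1D1* was not tested.

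*NR1D2* (ENSG00000174738, chromosome 3, 23945260 to 23980618, plus strand), with the promoter shown above, was the most deeply counted of the 10 with 1197 to 1831 counts per library. It was at 76.8, 67.0 and 71.0 CPM under control ATII CM and 74.8, 68.5 and 69.7 CPM under 4-OHT ATII CM, all of the latter inside the range of the former. The log2 fold change was -0.016 (SE 0.0502), and its 95% interval, from -0.12 to 0.09, was the narrowest among the 10.

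The PAR bZIP factors are the output arm that turns the loop into rhythms of other genes. *DBP* (ENSG00000105516, chromosome 19, 48630030 to 48637438, minus strand), which in many tissues has one of the largest daily swings of any transcript, was at 5.25, 6.94 and 6.49 CPM under control ATII CM and 5.02, 6.94 and 5.67 CPM under 4-OHT ATII CM. The groups overlapped over most of their range. Its spread between replicates, 14.1% and 16.6% of the mean, was the widest of the 10 genes. The log2 fold change was -0.075 (SE 0.140, 95% interval -0.37 to 0.22). By leaving out 1 library it moved between -0.21, without 4-OHT ATII CM replicate 2, and 0.025, without 4-OHT ATII CM replicate 1. Exons of *DBP* overlap 661 bases of *SPHK2* on the opposite strand, whose own log2 fold change was -0.11 (adjusted p = 0.544 from edgeR). *TEF* (ENSG00000167074, chromosome 22, 41367333 to 41399326, plus strand) was steadier, at 21.4, 20.1 and 22.2 CPM under control ATII CM and 22.4, 20.9 and 22.8 CPM under 4-OHT ATII CM, and its log2 fold change was 0.051 (SE 0.0649, 95% interval -0.09 to 0.19).

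*BHLHE40* (ENSG00000134107, chromosome 3, 4979116 to 4985323, plus strand) encodes DEC1, an E-box repressor that also responds to hypoxia, cytokines and serum. It was at 25.1, 25.7 and 26.5 CPM under control ATII CM and 25.9, 25.5 and 24.9 CPM under 4-OHT ATII CM. The groups overlapped, and the spread between replicates was 2.74% and 1.95% of the group means, both below the counting error of 4.34% and 4.02% that the depth sets. The log2 fold change was -0.019 (SE 0.0551, 95% interval -0.14 to 0.10).

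**Figure D2:**
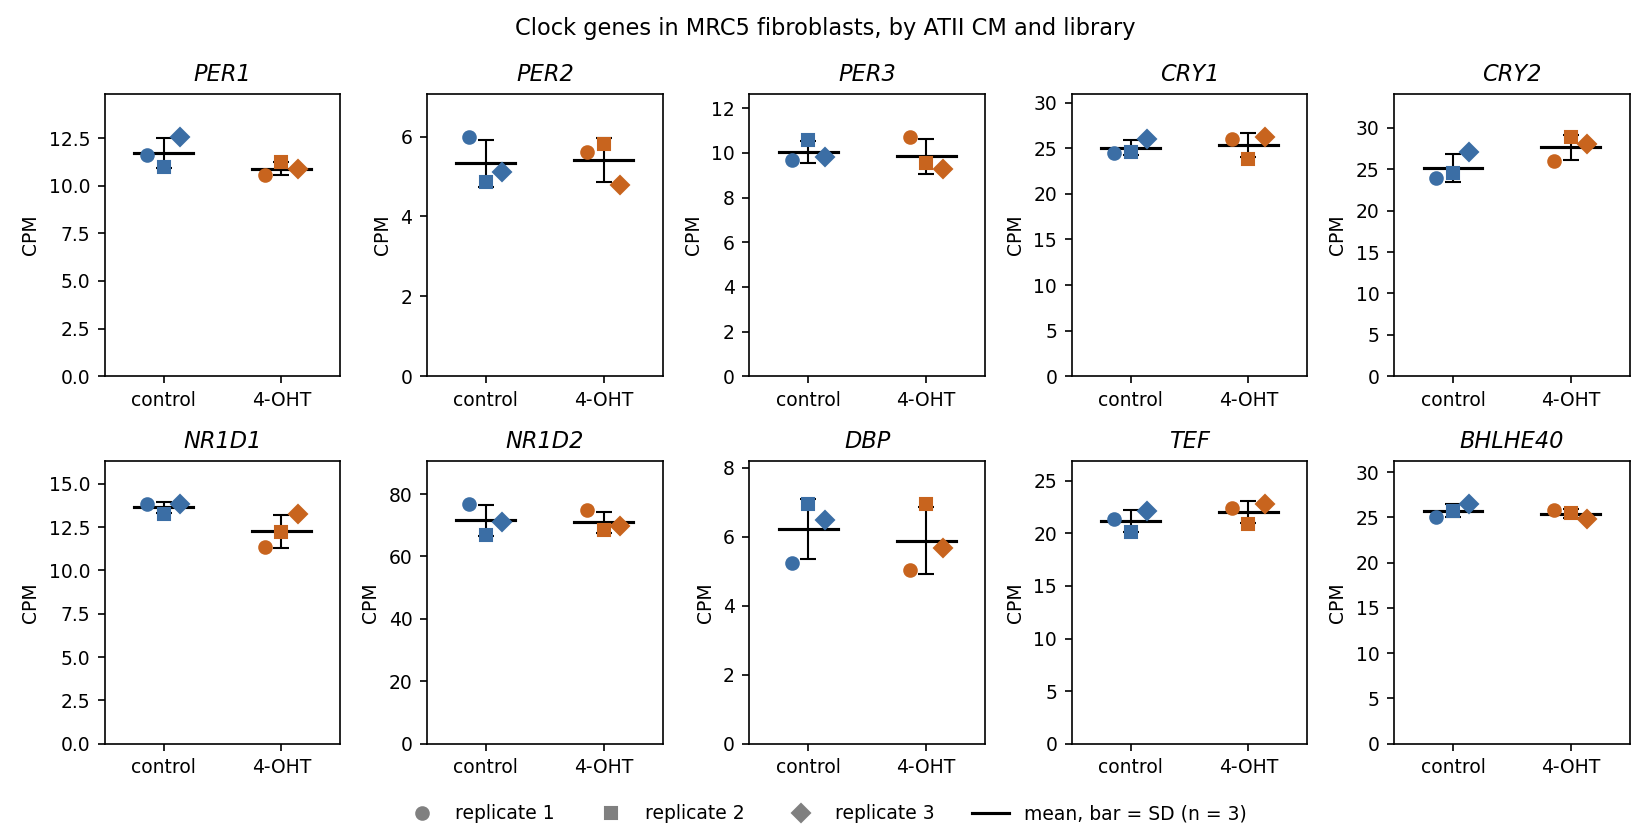
CPM of each of the 10 clock genes in the 3 libraries of control ATII CM (blue) and the 3 of 4-OHT ATII CM (orange), with the axis starting at 0. Lines are means, bars are SD, and symbols mark the replicate number. The groups overlap for every gene except *NR1D1*, whose lowest control library is at 13.3 CPM and highest 4-OHT library at 13.2 CPM.

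Of the 20 pairs of a clock gene and a group, 14 had a coefficient of variation above the counting error of a gene at that depth. The coefficients ran from 1.95% to 16.6%. Each rests on 3 libraries, so counting noise alone would put some of them above that error, and the excess was not tested. Leaving out 1 library at a time, or changing the test, the scaling, the filter, the depth or the block, gave 150 values for the 10 genes in all. None of these values passed the threshold, and the smallest adjusted p among them was 0.186. The sign was opposite in 13 of the 150, spread over *PER2*, *PER3*, *CRY1*, *NR1D2* and *DBP*. The largest change among them was a log2 fold change of -0.22 for *NR1D1*.

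**Figure D3:**
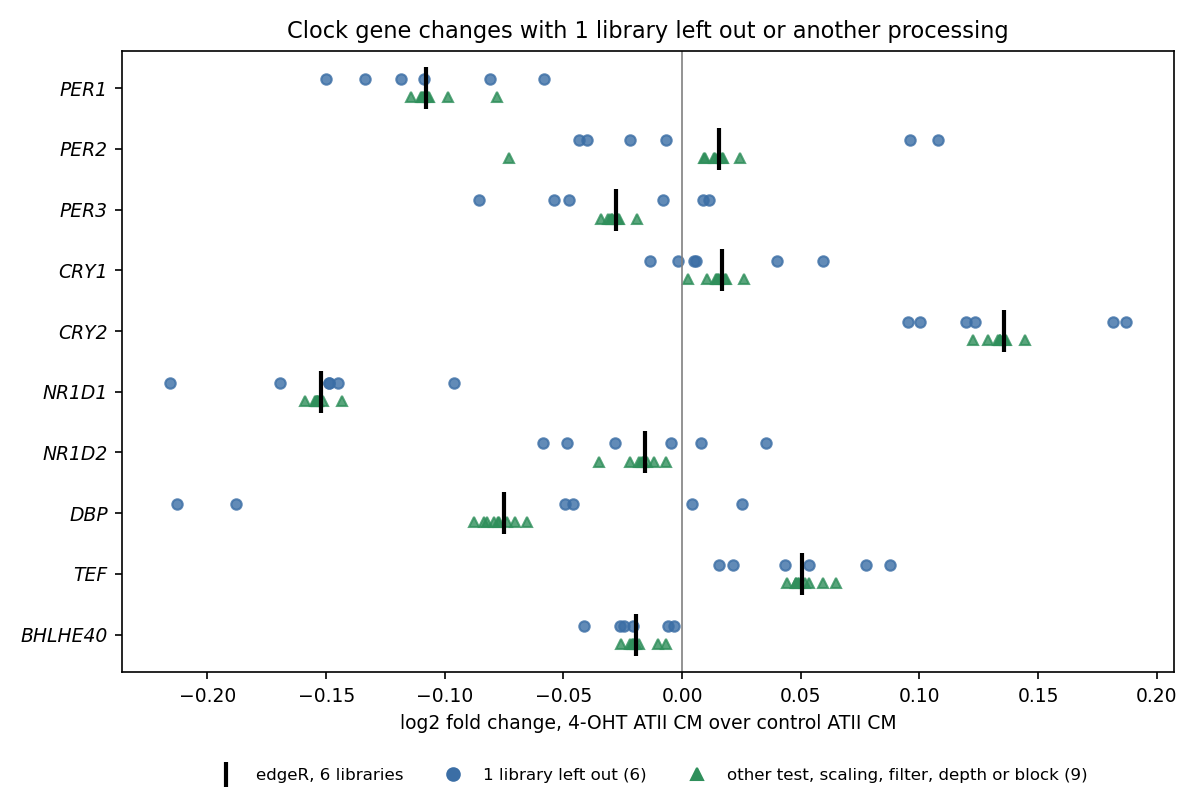
Log2 fold change of each clock gene with all 6 libraries (black line), with 1 library left out (blue circles) and under the other 9 alternatives of processing (green triangles). *NR1D1*, *PER1* and *BHLHE40* stay below 0 and *CRY2* and *TEF* above it, while *PER2*, *PER3*, *CRY1*, *NR1D2* and *DBP* have values on both sides.

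The positive arm of the clock consists of the activators that bind E-boxes, on which the PER and CRY proteins act as repressors. *CLOCK*, *NPAS2*, *BMAL1* and *BMAL2* all passed the count filter, and 0 of the 4 were called by edgeR, DESeq2 or limma-voom. Of all genes tested, edgeR called 5.72%. *CLOCK* and *BMAL2* had an unadjusted p below 0.05 from edgeR, as did 17.3% of all genes tested. *CLOCK*, which encodes the partner of BMAL1, was at 34.5 ± 1.33 CPM under control ATII CM and 31.9 ± 1.02 CPM under 4-OHT ATII CM (mean ± SD of 3), with overlapping groups and a log2 fold change of -0.11 (SE 0.0513, adjusted p = 0.262 from edgeR). *BMAL2*, a relative of *BMAL1*, was at 35.9 ± 0.835 CPM and 33.1 ± 0.876 CPM with groups apart, as in 22.1% of all genes tested. The log2 fold change of *BMAL2* was -0.12 (SE 0.0482, adjusted p = 0.187 from edgeR). *BMAL1*, the target of the REV-ERB receptors, was at 13.1, 12.8 and 13.5 CPM under control ATII CM and 14.02, 14.4 and 13.3 CPM under 4-OHT ATII CM, which gave 0.081 as its log2 fold change (SE 0.0744, adjusted p = 0.650). *NPAS2*, which can take the place of CLOCK, had a log2 fold change of -0.042 (adjusted p = 0.822).

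Among the ROR receptors, which activate *BMAL1* at the element that the REV-ERB receptors occupy, *RORA* alone was tested. It was at 5.67 ± 0.536 CPM and 6.24 ± 1.01 CPM (mean ± SD of 3), and its log2 fold change was 0.14 (SE 0.133, adjusted p = 0.665 from edgeR). *RORB* had 1 count in all and could not be compared. The PAR bZIP gene *HLF*, a relative of *DBP* and *TEF*, had 2 counts in all and could not be compared.

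Of the other repressors and bZIP factors, 3 of 4 were tested and 0 were called. *NFIL3*, which represses at the D-boxes that DBP and TEF activate, was at 27.0, 27.3 and 27.2 CPM under control ATII CM and 29.1, 28.9 and 30.7 CPM under 4-OHT ATII CM. The groups lay apart, as in 22.1% of all genes tested. The log2 fold change of *NFIL3* was 0.12 (SE 0.0526, unadjusted p = 0.0342, adjusted p = 0.235 from edgeR). *CIART*, an E-box gene that follows the clock closely, had a log2 fold change of -0.053 with a wide 95% interval from -0.41 to 0.31, and *BHLHE41*, the relative of *BHLHE40*, was close to the limit of detection at 6 to 18 counts per library.

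Stability of the PER and CRY proteins is set by kinases and ubiquitin ligases, and no gene of this list described here was called by edgeR, DESeq2 or limma-voom or had an unadjusted p below 0.05. *USP7*, a deubiquitinase gene, had a log2 fold change of -0.071 (SE 0.0447, adjusted p = 0.466 from edgeR). *CSNK1D* and *CSNK1E*, the kinases of the PER proteins, had log2 fold changes of 0.017 and 0.019, and *CSNK1A1*, *BTRC*, *FBXW11* and *GSK3B* lay between 0.0094 and 0.063.

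**Figure D4:**
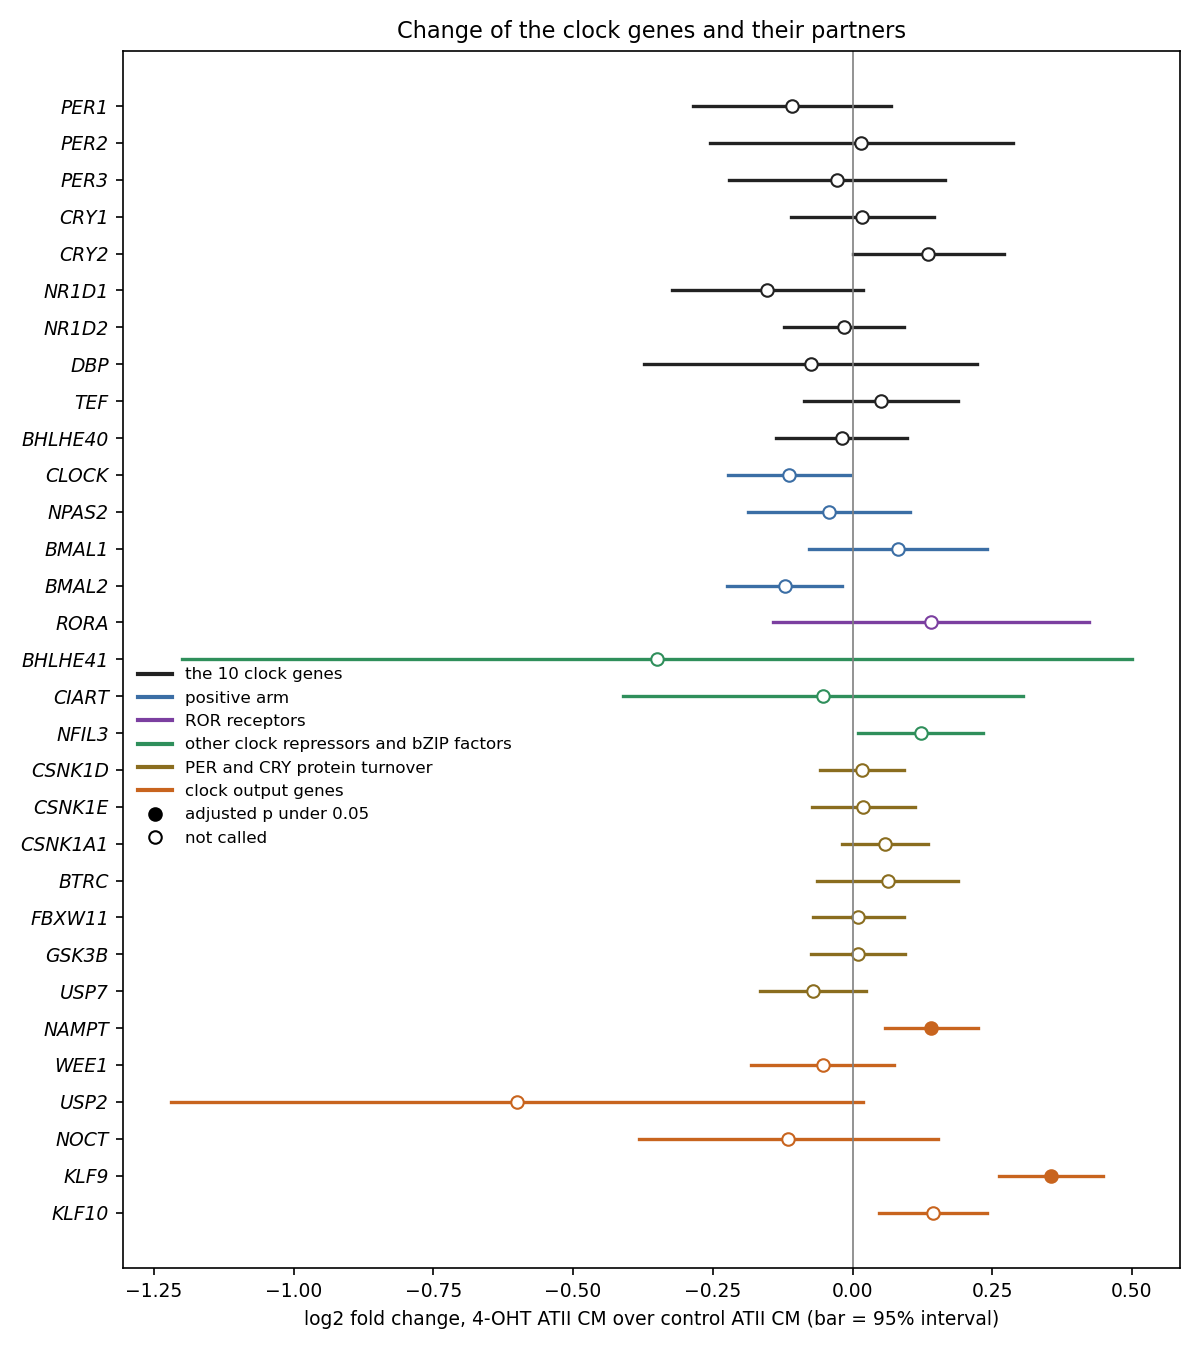
Log2 fold change in 4-OHT ATII CM over control ATII CM with its 95% interval for the 10 clock genes and the tested partner and output genes described here, colored by list. Filled circles are genes with an adjusted p below 0.05, which are *KLF9* at 0.36 and *NAMPT* at 0.14, and the intervals of all 10 clock genes include 0.

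Genes that the clock is known to drive gave the only calls of these lists, 2 of 6. Both were higher in 4-OHT ATII CM, a direction called for 2.95% of all genes tested. The lists were chosen with earlier results of these data known, so no excess can be read from these shares. *KLF9*, a zinc finger factor under control of both the clock and glucocorticoids, rose from 42.3, 39.4 and 42.3 CPM under control ATII CM to 53.0, 53.8 and 52.2 CPM under 4-OHT ATII CM. All 3 libraries lay above those of the controls, with a log2 fold change of 0.36 (SE 0.0438, adjusted p = 0.000162 from edgeR), and *KLF9* was called in 15 of 15 alternatives (adjusted p up to 0.00288). *NAMPT*, the rate-limiting enzyme of NAD salvage, rose from 53.2, 52.1 and 53.6 CPM to 57.3, 58.3 and 59.5 CPM. Its log2 fold change was 0.14 (SE 0.0389, adjusted p = 0.0448), and the call was lost in 10 of 15 alternatives, among them DESeq2 (adjusted p = 0.137) and the removal of any 1 of the 6 libraries (0.0560 to 0.235).

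The other output genes did not pass. *KLF10*, a TGF-β-responsive factor, was at 43.8 ± 0.827 CPM and 48.4 ± 2.05 CPM (mean ± SD of 3) with groups apart, as in 22.1% of all genes tested. The adjusted p of *KLF10* was 0.0830 from edgeR, or 0.0350 with the filter lowered to 1 count. *USP2*, a deubiquitinase gene with strong daily rhythm in mouse tissues, was at 1.03 ± 0.169 CPM and 0.675 ± 0.175 CPM, on 12 to 24 counts per library, with a log2 fold change of -0.60 (SE 0.291, adjusted p = 0.306). *WEE1*, a brake on entry into mitosis, and *NOCT*, which encodes nocturnin, had log2 fold changes of -0.054 and -0.11 (adjusted p = 0.727 and 0.721). Over all 25 partner and output genes, 22 were tested and 2 were called, beside 5.72% of all genes tested.

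**Figure D5:**
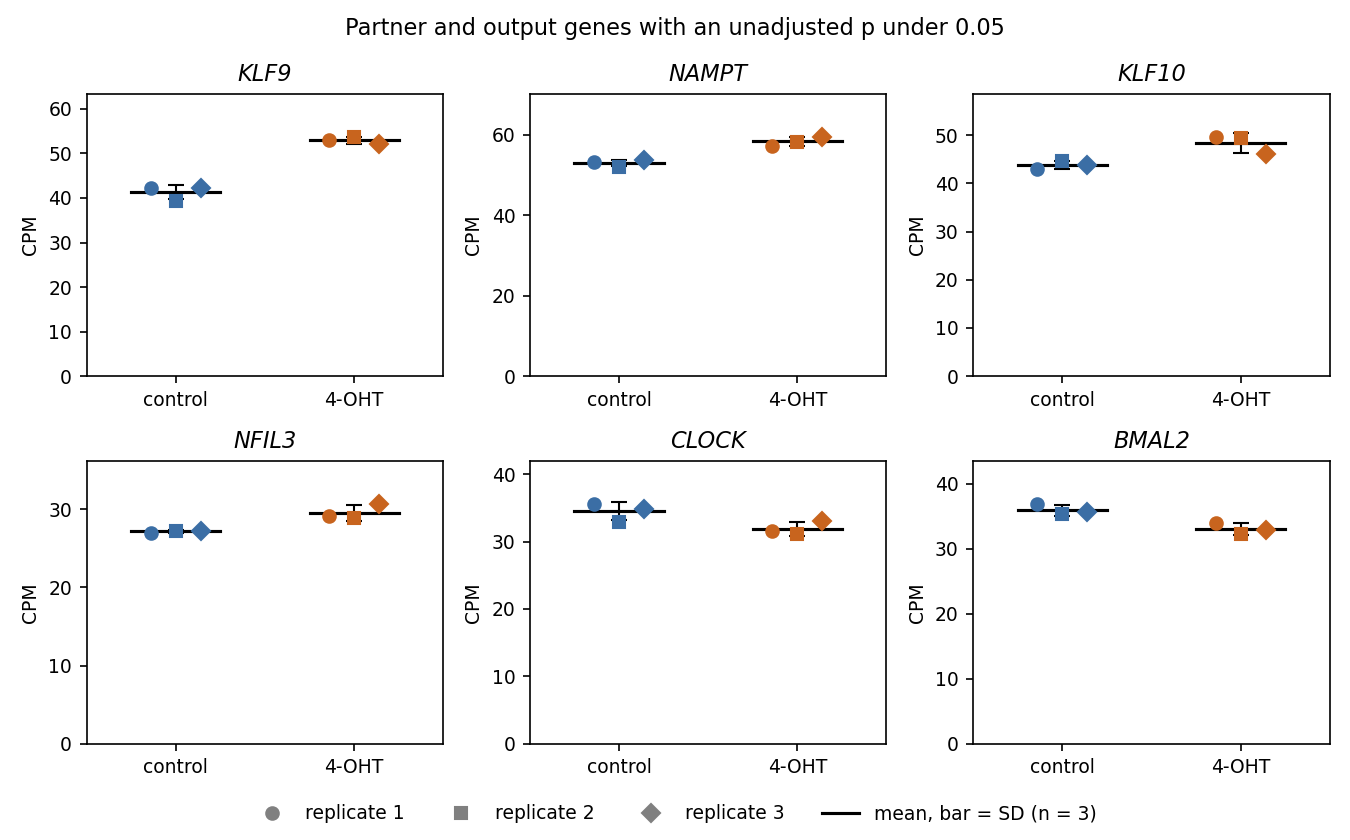
CPM of 6 partner and output genes with an unadjusted p below 0.05, in the 3 libraries of control ATII CM (blue) and the 3 of 4-OHT ATII CM (orange), with lines for means and bars for SD. *KLF9* has the widest gap, from at most 42.3 CPM to at least 52.2 CPM, and *CLOCK* is the one gene whose groups overlap.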

How the data were processed

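RNA-Seq libraries of MRC5 fibroblasts (3 in control ATII CM, 3 in 4-OHT ATII CM) were grouped from their titles. Reads were trimmed with Trim Galore, mapped to GRCh38 with HISAT2 (version 2.1.0) and summarized with featureCounts (version 1.6.5) by the authors, who deposited raw read counts per gene without normalization. The annotation release, the strand setting and the handling of multimapping reads are not given in the sources used here. Nothing in the labels says whether replicates were separate cultures, so p values measure the spread between these libraries, which may be technical. No batch is named in the labels. Replicate pairs differed by more than counting noise (chi-square per degree of freedom 2.04 to 5.56), and 45 identifiers listed on both X and Y were summed.

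Symbols came from GENCODE release 44. Genes with at least 10 counts over the 6 libraries (19072) entered the quasi-likelihood test of edgeR 4.0.16 under R 4.3.3, with TMM scaling, group as the only term and a Benjamini-Hochberg adjusted p below 0.05. The F statistic gave standard errors and 95% intervals. CPM used TMM library sizes, except in sums of markers, which used library totals. The square root of the common dispersion was 4.36%. DESeq2 1.42.0, limma-voom (limma 3.58.1), other scalings and filters, thinning, a replicate block and the removal of each library were alternatives. Tests were checked on simulated counts.

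The 10 genes and the partner lists were chosen with earlier results of these data known. Named were the list members, genes overlapping them on the other strand, and, for any called member, the genes with the most similar profile, which did not apply since no member was called. Some genes of the partner lists are not reported here, while the counts over whole lists include them. The canonical transcript length and the count of at least 2 E-boxes were alternatives chosen after seeing the data.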

Additional observations from a re-analysis of the deposited data

How the results depend on the processing

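No alternative brought any of the 10 clock genes past the threshold. The sign of *PER2* turned when counts were thinned to the smallest total (-0.073). With 1 library left out, log2 fold changes ranged from -0.043 to 0.11 for *PER2*, -0.086 to 0.011 for *PER3*, -0.013 to 0.059 for *CRY1*, -0.059 to 0.035 for *NR1D2* and -0.21 to 0.025 for *DBP*, and among partners from -0.21 to 0.028 for *CIART*, -0.00051 to 0.041 for *CSNK1D*, -0.031 to 0.047 for *CSNK1E*, -0.013 to 0.028 for *FBXW11* and -0.025 to 0.035 for *GSK3B*. The number of genes called among all tested was 1090 in the main fit and 1601 with genes of at least 1 count. Removal of 1 library gave at the lowest 533, without 4-OHT replicate 2, and at the highest 1530, without control replicate 2. The number was 663 without control replicate 3 and 615 without 4-OHT replicate 3. Among output genes it fell from 2 to 1 with DESeq2, limma-voom, library totals alone, the replicate block and each removal of 1 library, where *NAMPT* was lost. On the protein turnover list it was 1 with genes of at least 1 count. The cause was not tested. The replicate numbers did not pair the libraries (r = -0.014, -0.10 and -0.093 between deviations of same-numbered libraries over 9691 genes), no library correlated best with that of its own number, and the replicate block gave 985 calls in all, with *NAMPT* at an adjusted p of 0.0636 and no other call changed on these lists.

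Levels per length as TPM, a scale of other size, were 49.9 for *NR1D2*, 27.1 for *BHLHE40*, 20.3 for *CRY1*, 19.0 for *NR1D1*, 18.7 for *TEF*, 17.3 for *CRY2*, 6.58 for *PER1*, 5.001 for *PER3*, 3.76 for *DBP* and 3.18 for *PER2*, in the same order as RPKM. With canonical transcript lengths RPKM were 13.6 for *NR1D2*, 8.12 for *BHLHE40*, 8.44 for *CRY1*, 4.94 for *TEF*, 6.40 for *CRY2*, 2.42 for *PER1*, 1.56 for *PER3* and 2.79 for *DBP*. Depth limits *DBP* and *PER2* most, at 87 to 173 counts per library.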

Other observations

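E-boxes were also followed beyond the clock genes, as a description with no test. Of 12340 tested genes with a promoter window, 1473 held at least 1 CACGTG in a window and 7.06% of these were called, beside 6.84% of the 10867 genes without one. The called genes with an E-box divided into 39 with higher and 65 with lower levels under 4-OHT ATII CM. Those without one divided into 399 with higher and 344 with lower levels. With at least 2 matches in 1 window, 13 of 149 genes were called (8.72%), 5 of them higher and 8 lower. The difference in direction was not tested.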
